A study of Mus musculus with 8 samples.

Results

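The S100 calcium-binding proteins were followed in colon RNA of mice with colitis. The 10 genes were taken by name from the deposited table of 18806 genes: S100a4, S100a6, S100a8, S100a9, S100a10, S100a11, S100a14, S100a16, S100b and S100g. The study asked what the gut bacterium Alistipes putredinis (AP) does in colitis. All mice received DSS (dextran sulfate sodium), a sulfated sugar polymer that damages the lining of the colon. One group of 4 had DSS without the bacterium (DSS) and the other group of 4 had DSS with it (DSS+AP), each library coming from 1 mouse drawn at random. The series had no untreated mice, and strain, sex, age, doses and times were not given in the sources used here.

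S100 proteins are small proteins that carry a pair of EF-hand calcium-binding loops and mostly work as dimers. S100A8 and S100A9 form calprotectin, which neutrophils and monocytes hold in large amounts, which withholds zinc and manganese from microbes, and whose level in stool is a clinical measure of bowel inflammation. Other members bind annexins or myosin inside cells, S100B marks glia, and S100G (calbindin-D9k) carries calcium through absorptive enterocytes under the control of vitamin D.

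The genes lie on 3 chromosomes of the mouse (GRCm38.p6). Chromosome 3 held 8 of the 10. S100a14, S100a16, S100a4, S100a6, S100a8 and S100a9 sat together between positions 90526849 and 90695721, and S100a11 and S100a10 between 93520496 and 93564645. S100b was on chromosome 10 (76253836 to 76261319) and S100g on the X chromosome (162961992 to 162964599). S100a8 (90669071 to 90670034) and S100a9 (90692630 to 90695721) stood 22595 bases apart on opposite strands. The DNA before the starts of S100a8 and S100a9 is shown because these genes rose and fell together from library to library, and that of S100g because it varied the most between libraries. Each sequence runs 5′ to 3′ from 150 bases before the RefSeq start of the gene through its first 30 bases, and capitals mark matches to TATAAA, a core promoter element, and to TTNNGNAA, of the C/EBP type, each on either strand.
S100a8, chr3:90668921-90669100, plus strand: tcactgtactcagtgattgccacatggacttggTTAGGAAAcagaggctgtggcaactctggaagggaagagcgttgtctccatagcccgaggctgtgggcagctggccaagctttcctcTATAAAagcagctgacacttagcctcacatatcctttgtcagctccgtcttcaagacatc
S100a9, chr3:90695692-90695871, minus strand: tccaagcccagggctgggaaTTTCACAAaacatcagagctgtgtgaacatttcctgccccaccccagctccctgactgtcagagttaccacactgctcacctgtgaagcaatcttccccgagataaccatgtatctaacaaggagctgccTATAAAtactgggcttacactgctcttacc
S100g, chrX:162964570-162964749, minus strand: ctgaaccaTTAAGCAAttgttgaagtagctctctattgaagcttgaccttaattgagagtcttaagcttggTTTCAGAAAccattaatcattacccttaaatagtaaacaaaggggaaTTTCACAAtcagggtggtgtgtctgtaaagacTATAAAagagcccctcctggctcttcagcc
The RefSeq promoter table (250 bases before to 50 after a start) held 9 windows for 8 of the 10 genes, with no entry for S100a10 and S100a14. TATAAA was in 4 of the 9 windows, those of S100a4, S100a8, S100a9 and S100g, and in 13.6% of all 32817 mouse windows. TTNNGNAA was in 3 of the 9, those of S100a8, S100a9 and S100g, and in 40.7% of all windows. TTTATNG, a CDX-type match, was in the same 3 and in 10.9% of all windows, in each case overlapping the TATAAA match on the other strand. TGANTCA (AP-1) was in 2 of the 9, S100a11 and the second start of S100a16, and in 7.81% of all windows. In S100a8 TATAAA began 30 bases before the annotated start, and in S100a9 and S100g the annotated start fell on it. These are matches of letters only.

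The libraries held between 16089081 and 17104290 estimated counts. Levels are given as CPM, counts for every 1000000 of the scaled total of the library, and 3 counts, taken as the floor of detection, came to between 0.167 and 0.186 CPM, a floor for counting error only. Epithelial genes (Epcam, Cdh1, keratins and others, 12 in all) summed to between 14233 and 18447 CPM and smooth muscle genes to between 1212 and 4357 CPM. Both kinds of transcript were thus in every library, and which layers of the gut wall each piece held was not tested. Library DSS+AP 2 stood apart from its group: its chi-square statistic per gene against the others was 43.3 to 63.9, while DSS+AP 1, 3 and 4 differed from each other by 11.2 to 12.4. DSS libraries differed from each other by 23.3 to 81.3, with DSS 4 at 62.2 to 81.3 from the others. Pairs across the groups ran from 27.7 (DSS 2 with DSS+AP 1) to 164 (DSS 4 with DSS+AP 3). DSS+AP 2 was nearer to DSS 2 (39.0) than to any library of its own group. Values without DSS+AP 2 are given for S100g and the genes nearest to it.

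Of the 10 S100 genes, 5 fell with the bacterium by edgeR's quasi-likelihood test (adjusted p under 0.05): S100a8, S100a9, S100a4, S100b and S100a6. All 10 entered the test. By edgeR 0 were called higher, where 1 was higher at an unadjusted p under 0.05 (S100g). Over all 14578 genes tested, edgeR called 20.4% lower and 8.84% higher. DESeq2 called 6 of the 10 lower and 1 higher (S100g), against 21.5% and 14.5% of all genes. With limma-voom 7 and 0 of the 10 were called, against 24% and 16.5%. The median log2 fold change (DSS+AP over DSS) was -0.58 for the 10 genes and 0.02 for all genes tested. In the same 5 genes every DSS+AP library lay below every DSS library, against 19.5% of all genes. None of the 10 had every DSS+AP library above every DSS library, against 10.8% of all genes. The genes were named with earlier results of these data known, so these shares describe them and test nothing. Leaving out DSS 1 or DSS 4 left 3 S100 genes called lower, and leaving out library 1, 3 or 4 of DSS+AP left 2. The share of all genes called lower was 13.4% to 20.9% when 1 library was left out. S100a4 and S100b were the 2 genes called in every setting tried.

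**Figure D1:**
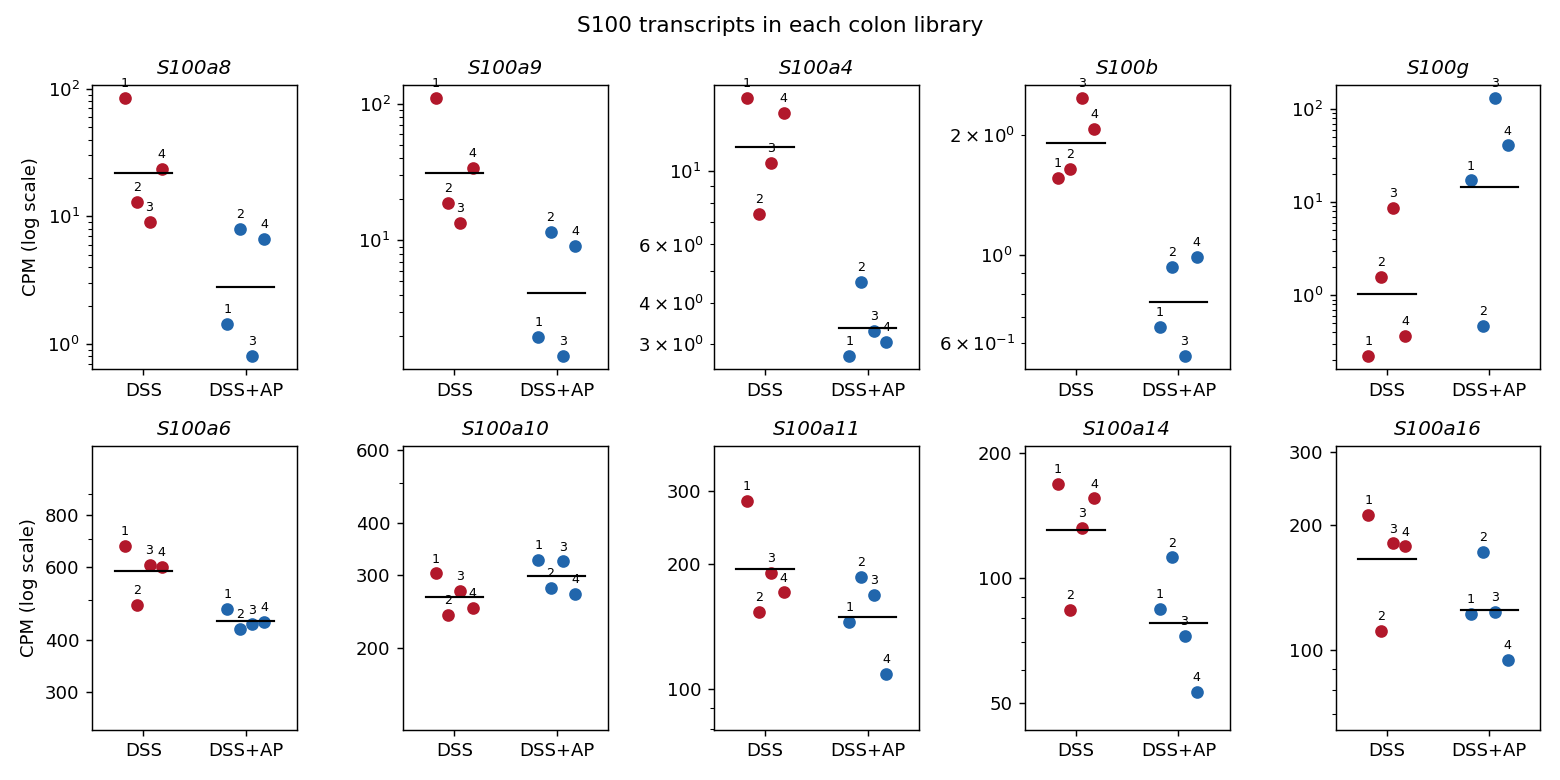
CPM of each S100 gene in each of the 8 colon libraries on a log axis, DSS in red and DSS+AP in blue, with the replicate number beside each point and a line at the geometric mean of the group. Groups do not overlap for S100a8, S100a9, S100a4, S100b and S100a6, and S100g ranges from 0.223 to 132 CPM with DSS+AP 2 among the DSS libraries.

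Calprotectin transcripts fell together and steeply. S100a8 stood at 84.8, 12.9, 9.05 and 23.5 CPM in DSS 1 to 4 and at 1.44, 7.998, 0.806 and 6.69 CPM in DSS+AP 1 to 4. DSS 1 was far above the other DSS libraries, and DSS+AP 2 and 4 came within a small distance of DSS 3 without reaching it. Its mean was 32.6 ± 35.4 CPM in DSS against 4.23 ± 3.64 CPM in DSS+AP (SD, n = 4 each), or -2.94 ± 0.90 (SE) as a log2 fold change, with an edgeR adjusted p of 0.0397. S100a9, the partner chain, stood at 110.1, 18.8, 13.3 and 34.0 CPM in DSS, and at 1.98, 11.4, 1.43 and 9.11 CPM in DSS+AP. The libraries fell in the same order as for S100a8, apart by group but with a narrow gap between DSS 3 and DSS+AP 2. S100a9 changed by -2.88 ± 0.86 (edgeR adjusted p = 0.0357). Summed, the chains ran from 22.4 to 195 CPM in DSS and from 2.23 to 19.4 CPM in DSS+AP. Without DSS 1 the log2 fold changes shrank to -1.80 for S100a8 and -1.84 for S100a9 and neither passed (edgeR adjusted p = 0.107 and 0.0981). Both calls were also lost when DSS 4 or library 1, 3 or 4 of DSS+AP was left out (0.0621 to 0.0965) and without a filter on low counts (0.0783 and 0.0741).

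The ratio of the 2 chains differed between the groups by less than its spread. The log2 ratio of S100a8 to S100a9 averaged -0.50 ± 0.083 in DSS and -0.53 ± 0.14 in DSS+AP (SD, n = 4 each), a difference of -0.030 (exact two-sided permutation p = 0.771 over 70 assignments; 4 such ratios were tested, adjusted p = 0.771). It lay between -0.74 (DSS+AP 3, from 13 and 23 counts) and -0.38 (DSS 1). Of all 45 pairs of the 10 genes, S100a8 and S100a9 were the most alike: once each gene was centred on its mean, their log2 CPM differed by a root mean square of 0.10 over the 8 libraries.

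Neutrophil genes moved with calprotectin. Of 22 listed, 15 were tested and 14 fell, where 20.4% of all genes fell. The median log2 fold change of the 15 was -2.20, against 0.02 for all genes. The number that fell was 4 or 5 without DSS 1 or 4 or library 1, 3 or 4 of DSS+AP, 13 or 14 without any other library, and 9 without a filter on low counts. The smallest p-values were those of Clec4d, a C-type lectin receptor, at -1.95 ± 0.40, Csf3r, which encodes the G-CSF receptor, at -2.03 ± 0.45, and the interleukin 1 decoy receptor gene Il1r2 at -2.65 ± 0.62. Fpr1 did not pass (edgeR adjusted p = 0.0646), and Cxcr1, Ngp, Camp, Elane, Mpo, Trem3 and Padi4 were too low to test. The summed level of the list ran from 103 to 356 CPM in DSS and from 27.1 to 101 CPM in DSS+AP, and no listed gene was at 0 throughout. The mean log2 level of S100a8 and S100a9 exceeded that of the tested neutrophil genes by 1.92 ± 0.67 in DSS and 1.15 ± 0.81 in DSS+AP, and this difference of -0.77 was not beyond the spread of the libraries (p = 0.171 by exact two-sided permutation, n = 4 each; adjusted p = 0.343 over 4 ratios). In bulk tissue, fewer cells of a type and less RNA per cell cannot be told apart. Macrophage genes also fell, 11 of 14 tested (6 without DSS+AP 1 or 3 and 7 without DSS 3 or 4), with a median of -0.93 and sums of 668 to 1458 CPM in DSS against 515 to 692 CPM in DSS+AP. Among them were the mannose receptor gene Mrc1 at -1.64 ± 0.29, the chemokine receptor gene Ccr2 at -1.80 ± 0.37 and Cd68 at -1.38 ± 0.29. The part of either cell type in the fall of S100a8 and S100a9 was not tested.

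The genes nearest to calprotectin in pattern were neutrophil and chemokine genes. With S100a9 these were Cxcr2, the receptor that draws neutrophils into tissue (root mean square difference of centred log2 CPM 0.18 over 8 libraries), Retnlg (0.35), Clec4e (0.36), the histamine synthesis gene Hdc (0.42) and the chemokine gene Cxcl2 (0.47). With S100a8 they were Cxcr2 (0.27), Retnlg (0.31), Clec4e (0.42), Cxcl2 (0.48) and Cxcl1 (0.50). S100a8 and S100a9 themselves varied by a root mean square of 1.93 and 1.88 around their means. Cxcr2 stood at 20.8, 3.59, 2.87 and 7.61 CPM in DSS, and at 0.300, 2.57, 0.310 and 1.61 CPM in DSS+AP, so DSS 1 was again the highest and DSS+AP 1 and 3 the lowest. Cxcr2, Retnlg, Clec4e and Hdc were on the neutrophil list already, and Cxcr2, Clec4e and Hdc lost their calls without the same 5 libraries as S100a8.

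**Figure D2:**
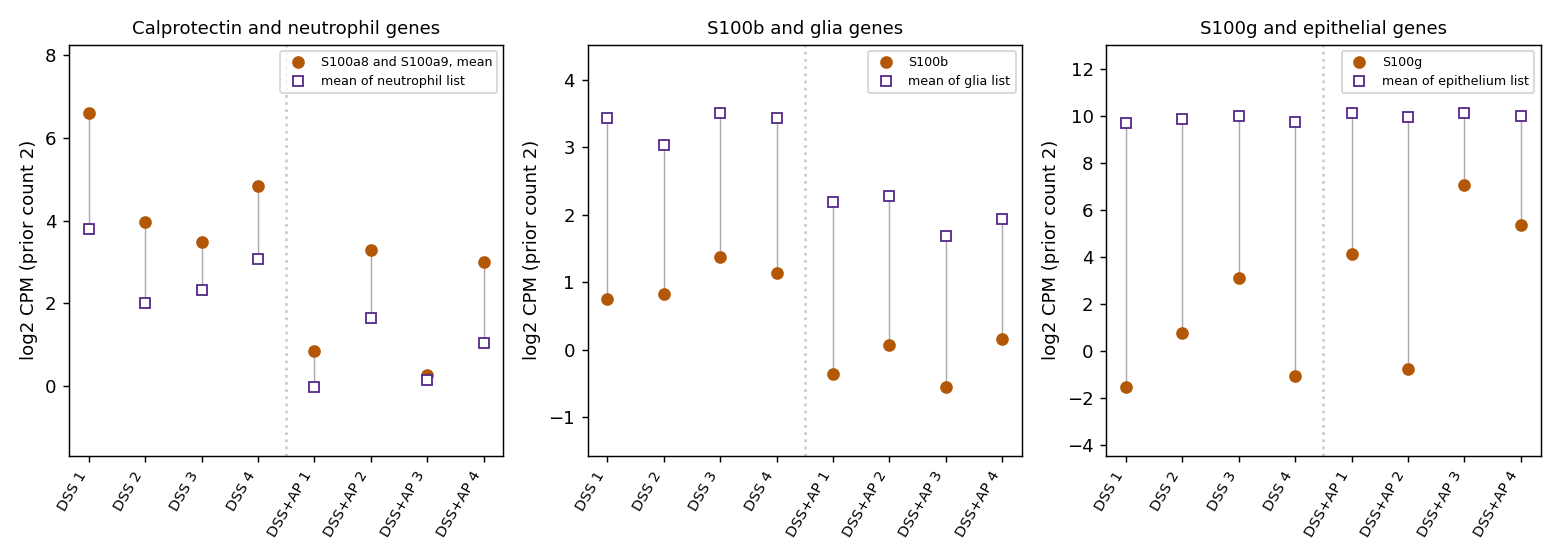
Mean log2 CPM (prior count 2) of S100a8 and S100a9, of S100b and of S100g (filled circles) beside the mean of the neutrophil, glia and epithelium lists (open squares) in each library. S100b stays about the same distance below the glia list in both groups, while S100g comes closer to an almost level epithelium list in DSS+AP 1, 3 and 4.

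S100a4 fell with the smallest p of the 10 genes. It encodes a motility-linked protein of fibroblasts, macrophages and T cells that binds non-muscle myosin. Its level was 16.7, 7.42, 10.6 and 14.98 CPM in DSS against 2.76, 4.61, 3.29 and 3.04 CPM in DSS+AP. The highest DSS+AP library, number 2, was below the lowest DSS library, number 2. The log2 fold change was -1.86 ± 0.28 (edgeR adjusted p = 0.00383), from 12.4 ± 4.20 to 3.42 ± 0.821 CPM (SD, n = 4 each). Over the 17 alternatives it lay between -2.03 and -1.65 and kept its call. In the GENCODE M21 annotation, 51.7% of the exon bases of S100a4 were shared with Gm42674 on the same strand. The deposited counts had no row for Gm42674, so the source of the reads given to S100a4 is uncertain. The 9 other S100 genes shared no exon bases with another gene. Fibroblast genes fell beside S100a4, 9 of 10 tested with a median of -1.23, where 20.4% of all genes fell and 8.84% rose. Among the 9 were the growth factor receptor gene Pdgfra at -1.20 ± 0.14 and the proteoglycan genes Dcn at -1.35 ± 0.18 and Lum at -1.18 ± 0.16. The summed level of the 10 was 2412 to 5573 CPM in DSS against 1296 to 2005 CPM in DSS+AP. Of 8 lymphocyte genes, 4 fell (among them Cd4, Ms4a1 and Cd79a) and 2 rose (Nkg7 and Cd8a), with 2 that fell and 1 that rose without DSS 4, DSS+AP 1 or DSS+AP 3 and 1 that rose without DSS 1 or DSS+AP 4, and with sums of 31.8 to 94.4 CPM in DSS against 28.4 to 43.1 CPM in DSS+AP. The part of these cell types in the fall of S100a4 was not tested.

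S100b, the glial member, fell as other glial genes did. It had the lowest mean of the 10 in both groups, although S100g was lower in DSS 1, 2 and 4 and in DSS+AP 2. It had 28, 28, 40 and 34 counts in DSS and 11, 16, 9 and 16 counts in DSS+AP. These came to 1.56, 1.65, 2.48 and 2.07 CPM in DSS against 0.660, 0.934, 0.558 and 0.991 CPM in DSS+AP, and the groups did not overlap. The log2 fold change was -1.29 ± 0.27 (edgeR adjusted p = 0.00905), between -1.42 and -1.15 over the 17 alternatives, all of which kept the call. Of 14 listed genes of enteric glia and related cells, 11 were tested and 9 fell, against 20.4% of all genes, with a median of -1.51. The intermediate filament gene Gfap fell by 2.89 ± 0.39 and Foxd3, a neural crest transcription factor gene, by 2.60 ± 0.35. Erbb3 and Entpd2 did not pass, at -0.07 ± 0.21 and -0.13 ± 0.11. The other 3, Fabp7 and Sox2 among them, were too low to test, and none of the list was at 0 throughout. The summed list ran from 341 to 509 CPM in DSS and from 289 to 411 CPM in DSS+AP, of which Erbb3 alone averaged 342 and 327 CPM. Against the mean of the tested glial genes S100b stood at -2.33 ± 0.24 in DSS and -2.20 ± 0.31 in DSS+AP on the log2 scale, a difference of 0.14 that was within the spread (p = 0.457 by exact two-sided permutation, n = 4 each; adjusted p = 0.610 over 4 ratios).

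Smooth muscle genes fell in 9 of 10, against 20.4% of all genes, with a median of -0.93. The number was 6 or 7 without DSS 1, 3 or 4 or library 1, 3 or 4 of DSS+AP. Among the 9 were Myocd, the master coactivator gene of smooth muscle, at -0.94 ± 0.16, Lmod1 at -0.87 ± 0.18 and Smtn at -0.74 ± 0.15. The part of smooth muscle in the fall of S100b was not tested. The genes nearest to S100b in pattern were Egln3, an oxygen-sensing hydroxylase gene (root mean square difference 0.15), the neurotrophin receptor gene Ntrk3 (0.16), Thsd7a (0.16), Fbxl16 (0.17) and Cpe, which encodes the carboxypeptidase of neuropeptide processing (0.17). S100b itself varied by 0.66.

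S100g varied more than any other of the 10, and its groups overlapped. It stood at 0.223, 1.59, 8.61 and 0.365 CPM in DSS, and at 17.2, 0.467, 132 and 40.8 CPM in DSS+AP, from 4, 27, 139 and 6 counts and 286, 8, 2133 and 658 counts. DSS+AP 1, 3 and 4 were above every DSS library, and DSS+AP 2 was below 2 of the DSS libraries. The highest library was 593 times the lowest. Only 5 libraries, 2 of DSS and 3 of DSS+AP, reached 10 counts. The log2 fold change of 4.16 ± 1.44 did not pass with edgeR (adjusted p = 0.0597). DESeq2 called it (adjusted p = 0.0182), and so did edgeR without DSS+AP 2, at 4.58 ± 1.09 (edgeR adjusted p = 0.0195), or without DSS 3, at 6.03 ± 1.75 (edgeR adjusted p = 0.0464). In the other 14 of 17 alternatives it did not pass, among them limma-voom (adjusted p = 0.234) and edgeR without a filter on low counts (adjusted p = 0.111). Without DSS+AP 3 it was 2.86 ± 1.35 (edgeR adjusted p = 0.165). The estimate for S100g was positive in all 17, from 2.86 to 6.03.

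General epithelial genes did not vary on this scale. Of 12 tested, 4 rose and 1 fell, against 8.84% higher and 20.4% lower among all genes. The median was 0.19, with sums of 14233 to 17072 CPM in DSS against 15971 to 18447 CPM in DSS+AP. The epithelial transcription factor gene Elf3 fell by 0.46 ± 0.082, while Krt20, a keratin of mature surface cells, rose by 0.60 ± 0.14 and the microvillus gene Vil1 by 0.40 ± 0.10. The rise of Vil1 was lost without DSS 4 (edgeR adjusted p = 0.0585) or DSS+AP 3 (0.0525), and the number that rose was 1 to 5 when 1 library was left out, lowest without DSS 4 or DSS+AP 3 and 2 without DSS 1 or DSS+AP 1. Relative to the mean of this list, S100g stood at -9.50 ± 1.98 in DSS and -6.11 ± 3.30 in DSS+AP on the log2 scale, a difference of 3.39 (exact two-sided permutation p = 0.114, n = 4 each; adjusted p = 0.343 over 4 ratios; smallest p the design allows 0.0286). Without DSS+AP 2 the difference was 4.93, with an exact permutation p of 0.0571, and without DSS+AP 3 it was 2.38, with an exact permutation p of 0.229.

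The genes nearest to S100g in pattern included brush border and transport genes of absorptive enterocytes, although none was close. Sis, the sucrase-isomaltase gene, differed by a root mean square of 1.15, the ileal bile acid transporter gene Slc10a2 by 1.29, the manganese exporter gene Slc30a10 by 1.37, Prap1 by 1.40 and Cyp4b1 by 1.42, where S100g itself varied by 3.03. Sis stood at 0.502, 11.01, 9.54 and 0.487 CPM in DSS, and at 18.8, 0.642, 43.2 and 27.0 CPM in DSS+AP. Slc10a2 stood at 12.9, 86.0, 79.3 and 5.18 CPM in DSS, and at 231, 4.09, 341 and 276 CPM in DSS+AP. In both, DSS 1, DSS 4 and DSS+AP 2 were the 3 lowest libraries, as they were for S100g. None of the 5 passed between the groups (edgeR adjusted p = 0.178 to 0.269). Without DSS+AP 2, Slc10a2 passed at 2.63 ± 0.83 (edgeR adjusted p = 0.0486) and the other 4 did not (0.0712 to 0.128).

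**Figure D3:**
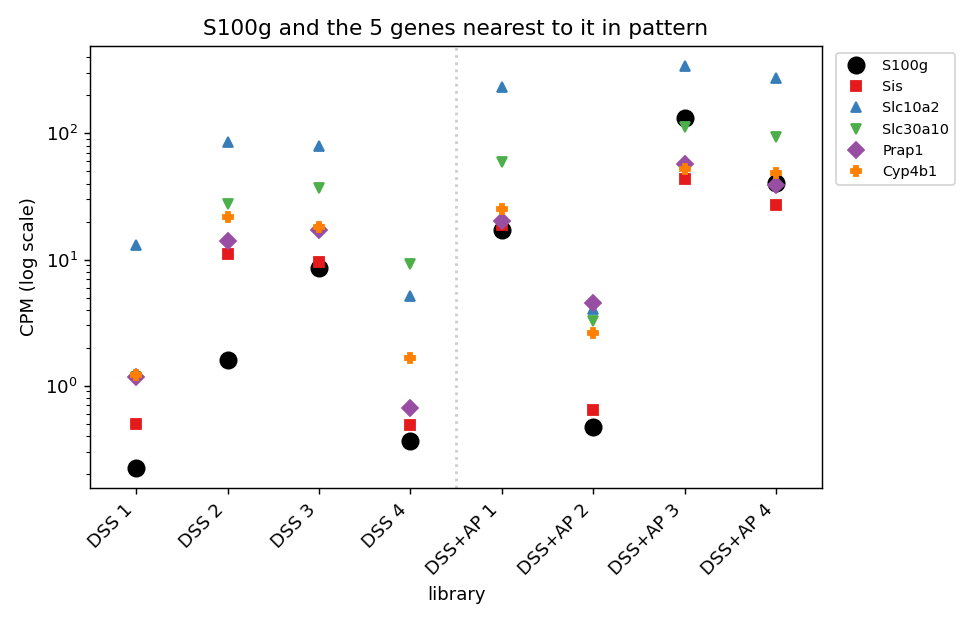
CPM on a log axis of S100g (black circles) and of Sis, Slc10a2, Slc30a10, Prap1 and Cyp4b1 in each library. DSS 1, DSS 4 and DSS+AP 2 are low and DSS+AP 1, 3 and 4 high for S100g, Sis and Slc10a2.

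Of 12 calcium uptake and vitamin D genes around S100g, 7 were tested, 2 rose and 1 fell, with a median of 0.27, against 8.84% higher and 20.4% lower among all genes. The list summed to 790, 1302, 1247 and 860.5 CPM in DSS, and to 1817, 1136, 1936 and 1977 CPM in DSS+AP. As for S100g, DSS+AP 1, 3 and 4 lay above every DSS library and DSS+AP 2 among them. Cldn2, which encodes a claudin that lets calcium pass between cells, rose by 1.40 ± 0.40 (edgeR adjusted p = 0.0302). Atp2b1, the gene of the pump that expels calcium at the basal side, rose by 0.77 ± 0.22 (edgeR adjusted p = 0.0320). The neuronal calcium-binding protein gene Calb2 fell by 1.21 ± 0.19. The vitamin D receptor gene Vdr, at 0.69 ± 0.28, did not pass (edgeR adjusted p = 0.0953). Trpv6, Trpv5, Calb1, Cyp24a1 and Cyp27b1 were too low to test, Trpv5 with no count in any library. The rises of Cldn2 and Atp2b1 were lost in 5 and 7 of the 17 alternatives, and neither held without DSS 1 or library 1, 3 or 4 of DSS+AP.

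The other 5 genes, S100a6, S100a10, S100a11, S100a14 and S100a16, were the abundant ones and had small log2 fold changes, from -0.74 to 0.17. S100a6, which encodes a protein of dividing epithelial and stromal cells that binds Cacybp, stood at 672, 486, 606 and 601 CPM in DSS, and at 474, 425, 436 and 442 CPM in DSS+AP. The groups did not overlap, with DSS 2 and DSS+AP 1 nearest to each other. It fell by 0.41 ± 0.10 (edgeR adjusted p = 0.0184), 1.33-fold. Leaving out library 1, 3 or 4 of DSS+AP ended the call at nearly the same size (edgeR adjusted p = 0.0603, 0.0560 and 0.0505).

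S100a14 and S100a16 are epithelial members and lie next to each other on chromosome 3. S100a14 stood at 169, 83.8, 132 and 155 CPM in DSS, and at 84.3, 112, 72.4 and 53.2 CPM in DSS+AP. DSS 2 lay among the DSS+AP libraries. Its log2 fold change of -0.74 ± 0.26 missed the threshold (edgeR adjusted p = 0.0591) and passed with DESeq2 (0.0256), limma-voom (0.0163), without DSS 2 (0.0215) or without DSS+AP 2 (0.0262). S100a16 stood at 212, 111, 181 and 178 CPM in DSS, and at 122, 172, 124 and 94.4 CPM in DSS+AP, with overlap at DSS 2 and DSS+AP 2. Its -0.41 ± 0.22 did not pass with edgeR (adjusted p = 0.189) and passed with limma-voom only, at -0.54 ± 0.19 (adjusted p = 0.0436). These neighbours were among the most alike pairs, with a root mean square difference of 0.20, after S100a8 with S100a9 (0.10) and S100a11 with S100a16 (0.18).

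S100a10 and S100a11 are annexin partners, S100A10 binding annexin A2 at the plasma membrane and S100A11 annexin A1. S100a10 was the one abundant member with a positive estimate, at 302, 239, 274 and 249.6 CPM in DSS against 325, 279, 323 and 269 CPM in DSS+AP. The groups overlapped, and 0.17 ± 0.10 did not pass (edgeR adjusted p = 0.238), which leaves both no change and a small rise possible. S100a11 stood at 283, 153, 190.5 and 171 CPM in DSS, and at 145, 185, 168 and 108 CPM in DSS+AP. DSS 1 was above all other libraries, and the rest overlapped (-0.39 ± 0.22; edgeR adjusted p = 0.198).

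**Figure D4:**
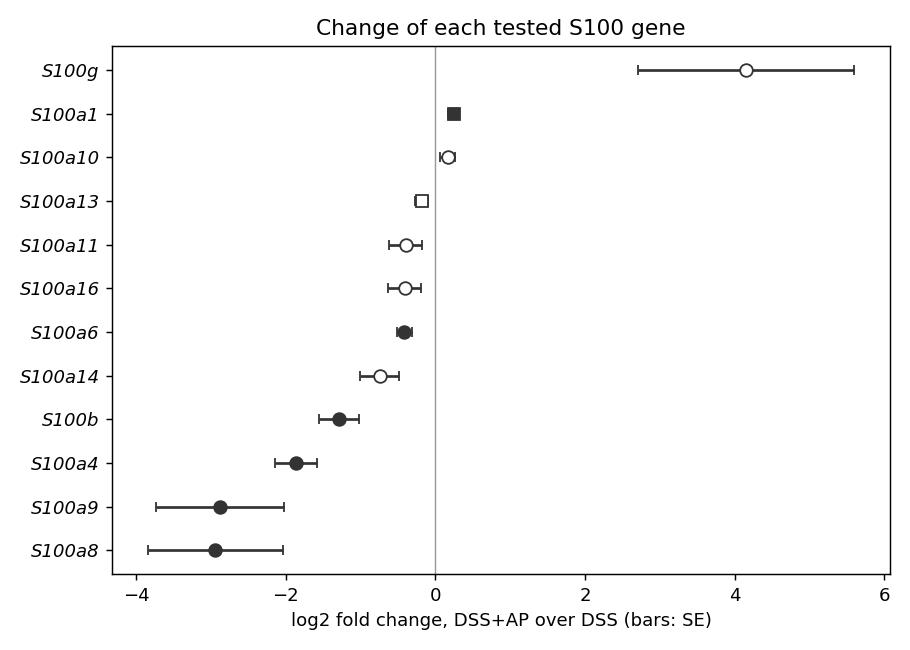
Log2 fold change of DSS+AP over DSS with its SE for the 10 S100 genes (circles) and for S100a1 and S100a13 (squares), filled where the edgeR adjusted p was under 0.05. S100a8 and S100a9 fall the most at -2.94 and -2.88 and S100g has the largest and least certain estimate at 4.16.

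Per kilobase of merged exon length (GENCODE M21), S100a6 was the most abundant of the 10, with a mean of 433 CPM per kilobase in DSS and 325 in DSS+AP. S100a11 followed with 390 and 297, and its libraries overlapped those of S100a6 in both groups. S100a10 (220 and 247), S100a16 (105 and 79.2) and S100a14 (78.1 and 46.6) came next. S100a9 averaged 84.4 CPM per kilobase in DSS and 11.5 in DSS+AP. In DSS 1 to 4 it stood at 211, 36.1, 25.5 and 65.2, so the DSS mean rested largely on DSS 1. Only DSS 4 lay within the range of S100a14 in DSS (48.5 to 97.7). S100a8 averaged 46.9 and 6.10, S100a4 21.3 and 5.86, and S100b 1.31 and 0.529. S100g averaged 5.62 CPM per kilobase in DSS and 99.3 in DSS+AP, with single libraries from 0.464 to 275.5.

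The table held 8 other genes whose symbols begin with S100. S100a1, a calcium regulator best known in muscle, rose slightly from 49.8 ± 3.93 to 59.2 ± 1.45 CPM (0.25 ± 0.074; edgeR adjusted p = 0.0335). S100a13, which helps release growth factors from cells, was at -0.18 ± 0.084 and did not pass (edgeR adjusted p = 0.131). S100pbp, whose product binds an S100 protein and is no S100 protein itself, was at -0.10 ± 0.21. S100a2, S100a3, S100a5, S100a7a and S100z were too low to test, with at most 13 counts in any library.

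Receptors of S100 proteins and their signalling genes fell in 9 of 15, against 20.4% of all genes, with a median of -0.49. Without DSS+AP 1 or DSS 4 the number was 5. Tlr4, the lipopolysaccharide receptor that calprotectin also engages, fell by 0.81 ± 0.11 (edgeR adjusted p = 0.00329), from 65.4 ± 6.10 to 37.3 ± 4.89 CPM. Fgfr1 fell by 1.33 ± 0.20 and Cd33, the gene of a myeloid receptor, by 1.78 ± 0.30. The adaptor gene Myd88 fell by 0.49 ± 0.13. Ager, which encodes the receptor RAGE, was low, at 1.41 ± 0.405 CPM in DSS against 1.05 ± 0.348 CPM in DSS+AP, and did not pass (edgeR adjusted p = 0.327). The summed level of the 15 genes overlapped between groups, at 1447 to 1708 CPM in DSS against 1441 to 1583 CPM in DSS+AP.

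Binding partners and targets of S100 proteins fell in 5 of 12, against 20.4% of all genes, with a median of -0.17. The number was 6 without DSS+AP 2, 2 without DSS+AP 1 and 3 without any other library. Over all genes the share was 13.4% to 20.9% when 1 library was left out. Anxa6 fell by 0.82 ± 0.13, the scaffold gene Ahnak by 0.67 ± 0.14 and Anxa5 by 0.62 ± 0.14, a call lost without DSS+AP 1 (edgeR adjusted p = 0.0556). Myh9, the non-muscle myosin that S100A4 binds, fell by 0.25 ± 0.081. Anxa2, the partner of S100a10, was at -0.07 ± 0.16 (edgeR adjusted p = 0.757) and Anxa1, the partner of S100a11, at -0.61 ± 0.28 (edgeR adjusted p = 0.130). Of 12 tested EF-hand calcium sensors outside the family, 1 fell, Ncs1 at -0.88 ± 0.23, and the median was 0.02. That call was lost without DSS 1 (edgeR adjusted p = 0.0561) or DSS+AP 4 (0.0574). Calml4 was at 0.31 ± 0.13 and did not pass.

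**Figure D5:**
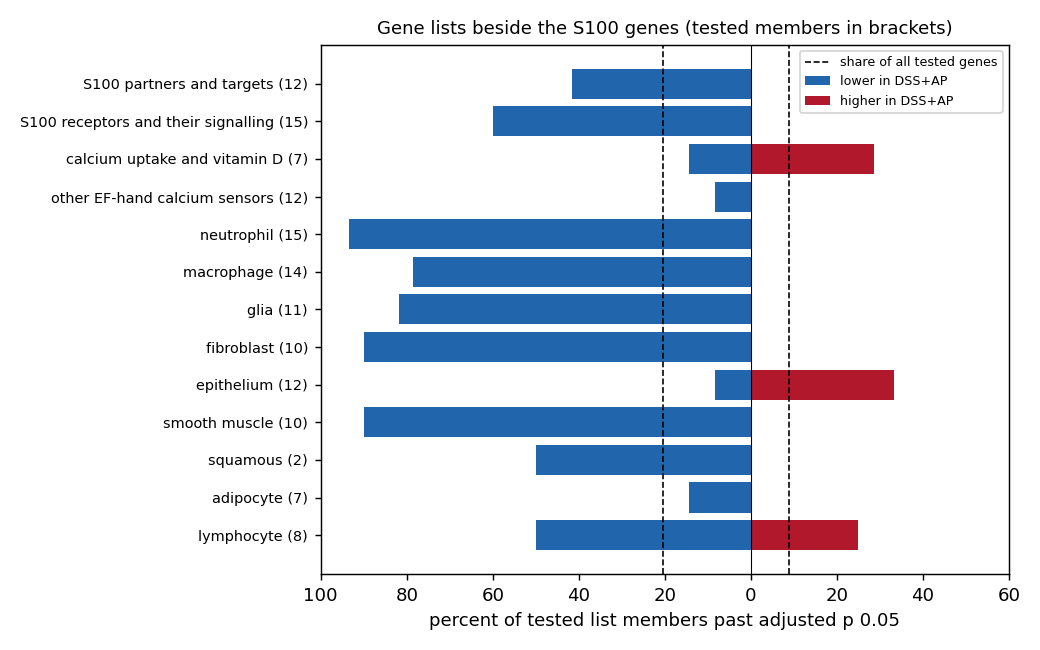
Percent of the tested members of each gene list that were lower (blue, to the left) or higher (red, to the right) with the bacterium by edgeR (adjusted p under 0.05), with dashed lines at the shares of all tested genes, 20.4% and 8.84%. Neutrophil, fibroblast, smooth muscle, glia and macrophage lists reach farthest to the left.

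Tissue that a piece of colon can carry along was low or uneven. Of 10 squamous genes of the anal margin, Krt14 and Sprr1a reached the test, and the list summed to between 4.52 and 18.7 CPM in any library. Krt14 fell by 1.96 ± 0.40 and had at most a few counts in DSS+AP, with a mean of 0.197 CPM, near the floor, and it was too low to test without DSS 1 or DSS 4. Adipocyte genes summed to between 68.4 and 335 CPM in DSS and between 70.2 and 247 CPM in DSS+AP. Of 7, against 20.4% of all genes, 1 was lower, Plin4 at -1.15 ± 0.36. That call held without DSS 1 or DSS+AP 3 and was lost without any other single library (edgeR adjusted p = 0.0588 to 0.106).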

How the data were processed

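Colon RNA of 8 mice was measured by RNA sequencing. Per the labels' protocols, RNA was purified on an RNeasy column and messenger RNA libraries were made with a SMARTer kit. RSEM 1.2.8, HISAT2 2.1.0, Bowtie2 2.2.5 and the build GRCm38.p6 stand in the submitters' processing notes, without their roles. The authors deposited estimated counts, not scaled to depth. Between 10.7% and 11.5% of them per library were not whole numbers, and all those of the 10 S100 genes were whole. Whether counting used strand was not given in the sources used here.

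Counts were rounded, filtered with filterByExpr (14578 of 18806 genes kept), scaled by TMM and tested with edgeR 4.0.16 (robust quasi-likelihood F test, no covariates, Benjamini-Hochberg over all genes tested, threshold 0.05) in R 4.3.3. SE values come from the estimate and its F statistic, and log2 CPM used a prior count of 2. Ratios of single values were tested by exact permutation of the mice. On simulated data with 14578 genes, edgeR recovered 22.4% of 67 changes of 1.5-fold, 89.6% of 67 of 2-fold and 100% of 66 of 4-fold. Of 148 calls there, 7 were false. These rates hold for the spread set in the simulation only, and recovery at the spread of S100a8 or S100g was not tested. In the deposited data S100g, at 4.16 ± 1.44, did not pass (edgeR adjusted p = 0.0597).

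The S100 genes and all 13 lists were chosen with earlier results of these data known. The rule named the 10 genes, up to 3 genes per list by smallest p, and the 5 genes nearest in pattern to S100a8, S100a9, S100b and S100g among genes whose mean log2 CPM reached 1. The other named genes (Anxa1, Anxa2, Ager, Myd88, Vdr, Myh9, Fpr1, Ly6g, Erbb3, Entpd2, Ms4a1, Cd79a, Cd8a and untested list members) were chosen after their values were seen. Alternatives were 3 other scalings, 2 other filters, no robust estimation, DESeq2 1.42.0, limma-voom (limma 3.58.1), a block for the replicate number, each library left out in turn and, for ratios, a prior count of 0.5. Sequences and coordinates are from RefSeq tables of GRCm38.p6, and exon lengths from GENCODE M21. Figures were drawn with matplotlib 3.10.9. Some genes that the rule would name are not reported here.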

Additional observations from a re-analysis of the deposited data

Results flagged for a closer look

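Of 28 groups of 4 values checked for a sample far from the others, 2 held one, where chance gives about 1 in 20. S100g in DSS 3, at 8.61 CPM, lay far above the other DSS libraries. The log2 ratio of S100a8 to S100a9 in DSS 1, at -0.38, lay above those of the other DSS libraries, which ran from -0.55 to -0.53.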

How the results depend on the processing

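The 10 S100 genes kept the direction of their estimates in all 17 alternatives. The calls of S100a4 and S100b held in every one, and those of S100a8 and S100a9 in 10 each. Of the 10 S100 genes, the number called lower was 3 without a low-count filter and 2 to 6 without single libraries. The number of the 10 called higher was 1 with DESeq2 and 0 to 1 without single libraries. The count of all genes called higher moved from 1288 to 767 with library totals only, 1950 without a low-count filter, 2107 with DESeq2 and 2410 with limma-voom, and ran from 525 to 2101 without single libraries. Among all genes, 2974 were called lower, and 1985 to 3086 without single libraries. With the replicate number as a block, 582 genes were called higher, 1967 lower, and 3 S100 genes lower, the calls of S100a8 (adjusted p = 0.0865) and S100a9 (0.0819) being lost. The block also left 2 of the neutrophil, 2 of the macrophage and 4 of the smooth muscle genes lower. Deviations of same-numbered mice from their group means correlated at -0.14, -0.45, 0.36 and -0.19 for numbers 1 to 4. The labels do not say whether the numbers pair mice, and 4 such correlations are too few to settle it. The ratio of S100a8 to S100a9, not called in any setting, ran from -0.063 to 0.040 without single libraries and changed sign without DSS 1 (0.011) and DSS+AP 3 (0.040). Cfd, also not called, ran from -1.45 to 0.042 and changed sign without DSS 3. The cause of these shifts was not tested, except that leaving out a library leaves fewer samples. Depth limits S100b (9 to 40 counts) and S100g (4 counts in DSS 1). The counts over gene lists without single libraries were added after the data were seen.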
